A study of Mus musculus with 6 samples.

Results

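The myeloid C-type lectins described here are 10 genes: Clec4a1, Clec4a2, Clec4a3, Clec4d, Clec4e, Clec4n, Clec5a, Clec7a, Clec10a and Clec12a. They were picked by gene symbol from the 26431 genes of an RNA-seq table of regenerating mouse muscle, and all 10 were present. The choice was made with earlier results of these data known. Of several transcripts of 1 symbol, that of highest mean RPKM stands for the gene. RNA came from the tibialis anterior (TA) muscle of 3 mice at day 3 after cardiotoxin (CTX) and of 3 uninjured mice, with 1 library per mouse. CTX, a venom toxin of Naja mossambica mossambica that destroys muscle fibres, was injected into the muscle as 50 μl of a 10 μM solution. The labels give C57BL/6 mice of 8 to 10 weeks, all female, with no transgene or targeted allele, and the uninjured mice received no injection. The study's general methods name males for adult mice unless stated otherwise, whereas in the files Xist, the RNA of the inactive X chromosome, was at 44.8 to 47.7 RPKM at CTX day 3 and 7.41 to 8.71 RPKM in uninjured muscle, and the Y-linked Ddx3y did not exceed 0.0239 RPKM at CTX day 3 or 0.0200 RPKM in uninjured muscle. Values are RPKM, read counts corrected for the length of the transcript and the depth of the library.

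C-type lectin receptors are membrane proteins with a lectin-like fold outside the cell, and those of myeloid cells bind sugars of microbes or material released from dying cells. Of the activating ones, Clec7a (Dectin-1) has a tyrosine motif of its own, Clec4n (Dectin-2), Clec4d (MCL) and Clec4e (Mincle) pair with the Fc receptor gamma chain (Fcer1g), and Clec5a (MDL-1) pairs with DAP12 (Tyrobp). Such motifs recruit the kinase Syk and, through Card9, Bcl10 and Malt1, activate NF-κB, whereas Clec12a (MICL) and Clec4a2 (DCIR) carry an inhibitory motif that recruits phosphatases such as Ptpn6 (SHP-1).

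The libraries held 34202861 to 36129090 mapped reads at CTX day 3 and 38737746 to 43062684 in uninjured muscle. Of 14446 genes tested, 8740 were called higher and 1150 lower at CTX day 3. Over all of them the log2 fold change had a median of 1.35. This split depended on the scaling between libraries: median-of-ratios scaling gave 3801 higher and 3254 lower, a scaling to ribosomal protein genes 2295 and 6069, and quantile normalization 3341 and 3414. A scaling to the ERCC spike-ins gave 7017 higher and 1580 lower, the nearest of these to the main split. Adult fast fibre markers checked the tissue. All 10 were lower at CTX day 3. Their summed level was 2216 to 9820 RPKM at CTX day 3, against 52857 to 56525 RPKM in uninjured muscle, and CTX day 3 replicate 3 was the lowest.

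All 10 lectins were higher at CTX day 3, and for each of them every CTX day 3 library lay above every uninjured library. Summed over the 10 genes, the level was 164, 183 and 185 RPKM in the CTX day 3 libraries, against 2.58, 1.56 and 2.28 RPKM in the uninjured libraries. The means were 177 ± 11.7 RPKM at CTX day 3 and 2.14 ± 0.523 RPKM in uninjured muscle (SD, n = 3 each), a ratio of 82.9. An exact two-sided permutation test gave p = 0.1, the smallest that 3 against 3 libraries allow. In limma on log2(RPKM + 0.1), 10 of 10 were called higher. A call needed a change of 2-fold or more and, after Benjamini-Hochberg adjustment, p under 0.05. The background was high, since 60.5% of all tested genes were called higher and 7.96% lower, and in 78.5% the CTX day 3 libraries all lay above the uninjured ones. Only Clec4a1 and Clec10a reached the filter of 0.5 RPKM in the uninjured mean, so the other 8 passed it through CTX day 3 and had to differ. With no filter 10 of 10 were also called, beside 38.3% of all genes, and 10 of 10 were called under each of the 4 other scalings. The smallest log2 fold change among the lectins, that of Clec4e, was above those of 92.0% of the tested genes. In whole muscle, more cells of a type and more RNA per cell cannot be told apart.

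**Figure D1:**
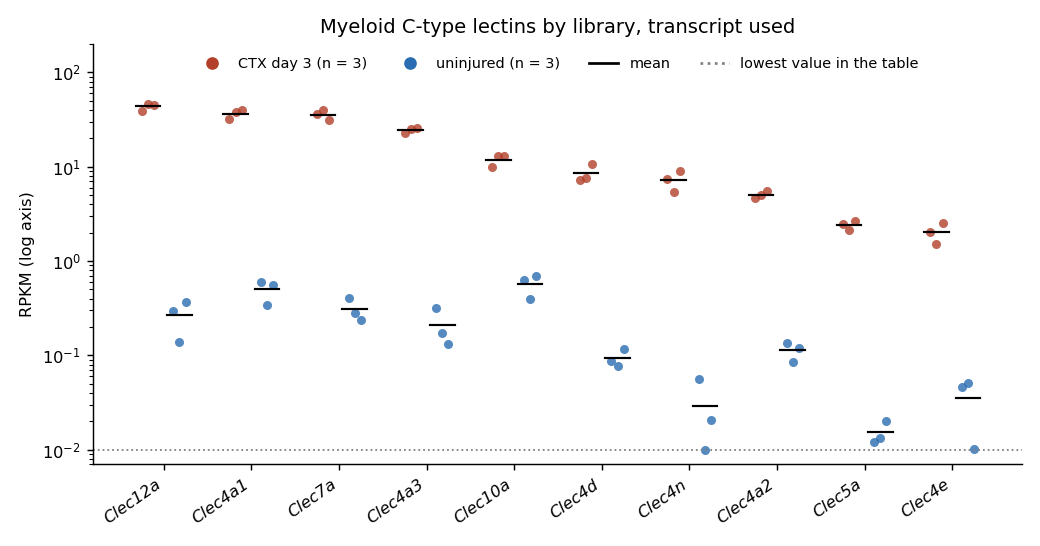
RPKM of each lectin (log axis) in the 3 CTX day 3 libraries and the 3 uninjured libraries, 1 point per library, with group means as bars and the lowest value of the table (0.01) as a dotted line. The groups do not overlap for any of the 10 genes, and Clec12a is highest at CTX day 3 with a mean of 43.5 RPKM, while Clec10a has the highest uninjured mean at 0.571 RPKM.

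Among the activating receptors, Clec7a, the beta-glucan receptor Dectin-1, was the most abundant. It lies on the minus strand of chromosome 6 (chr6:129461591-129472779 in GRCm38, where GENCODE classes it as a polymorphic pseudogene). Its level was 35.9, 39.6 and 31.6 RPKM at CTX day 3, against 0.408, 0.281 and 0.238 RPKM in uninjured muscle. This was a log2 fold change of 6.47 (SE 0.16, limma adjusted p = 1.02e-07) and a linear fold of 116 ± 12.8, the mean of the 3 CTX day 3 values each divided by the uninjured mean. The log2 values, here and for the other members, are on the log2(RPKM + 0.1) scale, which understates the change of genes that are low in uninjured muscle. In Clec7a the CTX day 3 library of replicate 3 was the lowest of its group, whereas it was the highest in 7 of the 10 members.

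Clec4n, Clec4d and Clec4e, the receptors that signal through the Fc receptor gamma chain, were nearly silent in uninjured muscle. Clec4n (chr6:123229843-123247021, plus strand), the alpha-mannan receptor Dectin-2, stood at 7.49, 5.36 and 8.91 RPKM at CTX day 3, against 0.0560, 0.01 and 0.0207 RPKM in uninjured muscle, or 957 pooled reads at CTX day 3 and 4 in uninjured muscle. The ratio of pooled reads was 273 (exact 95% interval 106 to 1005, covering counting error only), and the log2 fold change was 5.82 (SE 0.22, adjusted p = 2.74e-07). Its linear fold of 251 ± 61.9 was the largest of the 10 members on the transcripts used but rested on few uninjured reads. It became 472 without uninjured replicate 1, which held 3 of them, and 57.1 with 0.1 added to every RPKM. Over all its transcripts Clec4n had 2543 pooled reads at CTX day 3 and 25 in uninjured muscle, a ratio of 116, below those of Clec12a (163) and Clec4a3 (130).

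Clec4d (chr6:123262111-123275265, plus strand), or MCL, was at 7.27, 7.50 and 10.8 RPKM at CTX day 3, against 0.0869, 0.0766 and 0.116 RPKM in uninjured muscle. Its log2 fold change was 5.46 (SE 0.18, adjusted p = 1.66e-07), with a pooled read ratio of 92.1 (55.6 to 165). Clec4e (chr6:123281789-123289870, minus strand), or Mincle, a receptor for the mycobacterial glycolipid trehalose dimycolate and for a nuclear protein released by dead cells, was the lowest member at CTX day 3. It was at 2.03, 1.50 and 2.53 RPKM at CTX day 3, against 0.0461, 0.0508 and 0.0102 RPKM in uninjured muscle, or 539 pooled reads at CTX day 3 and 11 in uninjured muscle. Its log2 fold change of 3.95 (SE 0.23, adjusted p = 1.82e-06) was the smallest of the 10 on that scale, although its pooled read ratio was 56.0 (31.0 to 113), and with 0.01 added in place of 0.1 that of Clec10a (4.39) was the smallest, as it also was with ribosomal protein scaling. In all 3 genes CTX day 3 replicate 3 was the highest library. MCL and Mincle are known to form complexes with each other, and the ratio of Clec4e to Clec4d, over all their transcripts, was 0.127 ± 0.0244 at CTX day 3 and 0.181 ± 0.108 in uninjured muscle (SD, n = 3 each, exact two-sided permutation p = 0.4, adjusted over 5 ratios 0.4).

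Clec5a (chr6:40574894-40585821, minus strand), the DAP12-coupled receptor MDL-1, was low in both groups and, on the transcripts used, the lowest member in uninjured muscle. It was at 2.46, 2.11 and 2.65 RPKM at CTX day 3, against 0.0122, 0.0134 and 0.0203 RPKM in uninjured muscle, from 973 pooled reads at CTX day 3 and 7 in uninjured muscle. Its log2 fold change was 4.44 (SE 0.15, adjusted p = 1.68e-07), while its linear fold of 158 ± 18.03 was the third highest of the 10 and its pooled read ratio 159 (76.8 to 396), or 109 over all its transcripts. The added 0.1 RPKM exceeds its uninjured level, and Clec5a ranked eighth on the log2 scale.

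Clec12a (chr6:129342691-129365303, plus strand), the inhibitory receptor MICL that binds uric acid crystals, was the most abundant of the 10 at CTX day 3 on the transcript used. Its level was 39.3, 46.2 and 45.02 RPKM at CTX day 3, against 0.293, 0.138 and 0.372 RPKM in uninjured muscle. The log2 fold change of 6.94 (SE 0.24, adjusted p = 1.97e-07) was the largest among the members, and the linear fold was 163 ± 13.9. With 0.01 added in place of 0.1, that of Clec4n (7.69) was the largest, as it also was by voom on the recovered reads (7.99). Its lowest CTX day 3 library was 106-fold above its highest uninjured library.

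The Clec4a genes encode DCIR and its close relatives, and among the 3 members of this type Clec4a2 carries the inhibitory motif. Clec4a2 (chr6:123106428-123143999, plus strand) was at 4.64, 5.03 and 5.50 RPKM at CTX day 3, against 0.135, 0.0852 and 0.118 RPKM in uninjured muscle. Its log2 fold change was 4.60 (SE 0.14, adjusted p = 1.33e-07) and its linear fold 44.8 ± 3.81. Its relatives Clec4a1 and Clec4a3 were higher per length than Clec4a2 at CTX day 3, by a margin that depended on how transcripts were counted. Over all transcripts Clec4a2 averaged 14.8 ± 1.41 RPKM at CTX day 3 (SD, n = 3), beside 36.5 RPKM for Clec4a1, which has 1 transcript. Clec4a1 (chr6:122921848-122934619, plus strand) was at 32.0, 37.8 and 39.6 RPKM at CTX day 3, against 0.595, 0.344 and 0.562 RPKM in uninjured muscle. Its log2 fold change was 5.95 (SE 0.18, adjusted p = 1.43e-07) and its linear fold 73.0 ± 7.94, above those of Clec4a2. Clec4a3 (chr6:122952515-122969875, plus strand) was at 23.0, 25.0 and 25.9 RPKM at CTX day 3, against 0.317, 0.175 and 0.132 RPKM in uninjured muscle. It had the largest change of the 3, with a log2 fold change of 6.37 (SE 0.21, adjusted p = 1.66e-07) and a linear fold of 118 ± 7.31. CTX day 3 replicate 3 was the highest and replicate 1 the lowest of its group in all 3 genes.

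Clec10a (chr11:70156197-70170834, plus strand), the galactose and N-acetylgalactosamine receptor MGL1 of macrophages and dendritic cells, was the member with the highest level in uninjured muscle and the smallest linear fold. It was at 10.0, 12.9 and 12.8 RPKM at CTX day 3, against 0.634, 0.392 and 0.688 RPKM in uninjured muscle. The log2 fold change was 4.18 (SE 0.20, adjusted p = 6.62e-07) and the linear fold 20.9 ± 2.86. Its paralog Mgl2, which encodes the sister receptor MGL2, was at 5.68, 7.54 and 6.29 RPKM at CTX day 3, against 2.64, 1.75 and 1.93 RPKM in uninjured muscle, a log2 fold change of 1.59 (SE 0.17, adjusted p = 5.89e-05). The ratio of Clec10a to Mgl2, over all their transcripts, was 3.48, 3.43 and 3.82 at CTX day 3, against 0.458, 0.488 and 0.757 in uninjured muscle. Clec10a was thus the higher paralog in every CTX day 3 library and the lower one in every uninjured library (exact two-sided permutation p = 0.1, the smallest possible, adjusted over 5 ratios 0.25). Of the 50-base stretches of the Clec10a transcript used, 17.2% also occur in Mgl2, so some reads could have come from either gene.

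The order of the members at CTX day 3 was Clec12a, Clec4a1, Clec7a, Clec4a3, Clec10a, Clec4d, Clec4n, Clec4a2, Clec5a and Clec4e. In this order 3 steps were free of overlap between libraries, those below Clec7a, below Clec4a3 and below Clec4a2. The order depended on how transcripts were counted, because 6 members had several transcripts in the table and the reads were divided among them. The 2 Clec4d transcripts have the same 50-base stretches throughout (100%) and held 1210 and 1081 reads at CTX day 3. The 3 Clec4a2 transcripts held 1287, 1317 and 1284 reads. With the transcripts of a gene summed, Clec4a3 led at CTX day 3 with 49.1 ± 3.44 RPKM, and Clec12a followed with 43.5 ± 3.73 RPKM. Clec10a and Clec4n stood at 23.2 ± 3.15 and 20.3 ± 4.74 RPKM. In uninjured muscle the summed order was led by Clec10a with 1.17 ± 0.307 RPKM, whose libraries all lay above those of the next gene, Clec4a1, with 0.5001 ± 0.136 RPKM (SD, n = 3 in each case). Clec5a and Clec4e were the 2 lowest in both groups on this scale. On the transcripts used, the uninjured order was led by Clec10a and Clec4a1, whose libraries overlapped, the 2 lowest were Clec5a and Clec4n, and only the step below Clec4d was free of overlap.

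Of the 10 genes, 9 lie on chromosome 6 and 8 of these in a pair of gene clusters. The Clec4 cluster spans 368 kb (chr6:122921848-123289870) and holds 9 protein-coding genes in GENCODE, 6 of them members. The other 3 lie among them. Clec4a4, named for its position after its values were seen, encodes a second inhibitory DCIR and was at 1.66, 1.399 and 1.95 RPKM at CTX day 3, against 0.01, 0.0231 and 0.0466 RPKM in uninjured muscle. Clec4b1, which encodes an activating relative of DCIR, was at 1.72, 1.87 and 1.91 RPKM at CTX day 3, against 0.207, 0.01 and 0.0659 RPKM in uninjured muscle (log2 fold change 3.44, SE 0.35, adjusted p = 4.34e-05). Clec4b2, between Clec4a2 and Clec4n, had 1 read in the 3 CTX day 3 libraries together and 0 in the uninjured ones, so no level could be given. Of the 50-base stretches of Clec4a2, in the shorter GENCODE model of the transcript used, 19.9% also occur in Clec4a4 or Clec4b1. Another Clec4a2 transcript, of 2481 bases, shared 8.92% of its stretches with Clec4a4, Clec4b1 and many other genes. This leaves the levels of Clec4a2 and of these neighbours uncertain. The transcripts used of Clec4a1, Clec4a3, Clec4d, Clec4e, Clec5a, Clec7a and Clec12a shared no such stretch with another gene, and Clec4n shared 0.932% with Gm44147. For Clec5a the GENCODE model searched had 858 bases, against 3820 of the transcript used. The other Clec5a transcript, searched in a model of 3747 bases, also shared none.

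The second cluster runs from Clec12a to Clec7a, which bound a stretch with 4 further C-type lectin genes. The outer genes, both members, stood above 30 RPKM in every CTX day 3 library, and the 4 between them stayed under 3 RPKM. Clec1a, a receptor of endothelial and myeloid cells, was at 2.53, 2.22 and 2.06 RPKM at CTX day 3, against 1.12, 0.978 and 0.987 RPKM in uninjured muscle (log2 fold change 1.07, SE 0.12, adjusted p = 5.93e-05). Clec9a, a marker of cross-presenting dendritic cells, averaged 0.349 ± 0.0414 RPKM at CTX day 3 and 0.0887 ± 0.0219 RPKM in uninjured muscle, under the filter. The platelet receptor gene Clec1b had 13 reads at CTX day 3 and 3 in uninjured muscle, and Clec12b, an inhibitory relative of Clec12a, had 11 at CTX day 3 and 7 in uninjured muscle. Neither was called with no filter (adjusted p = 0.0515 for Clec1b and 0.606 for Clec12b). These 4 genes were named for their position after their values were seen.

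**Figure D2:**
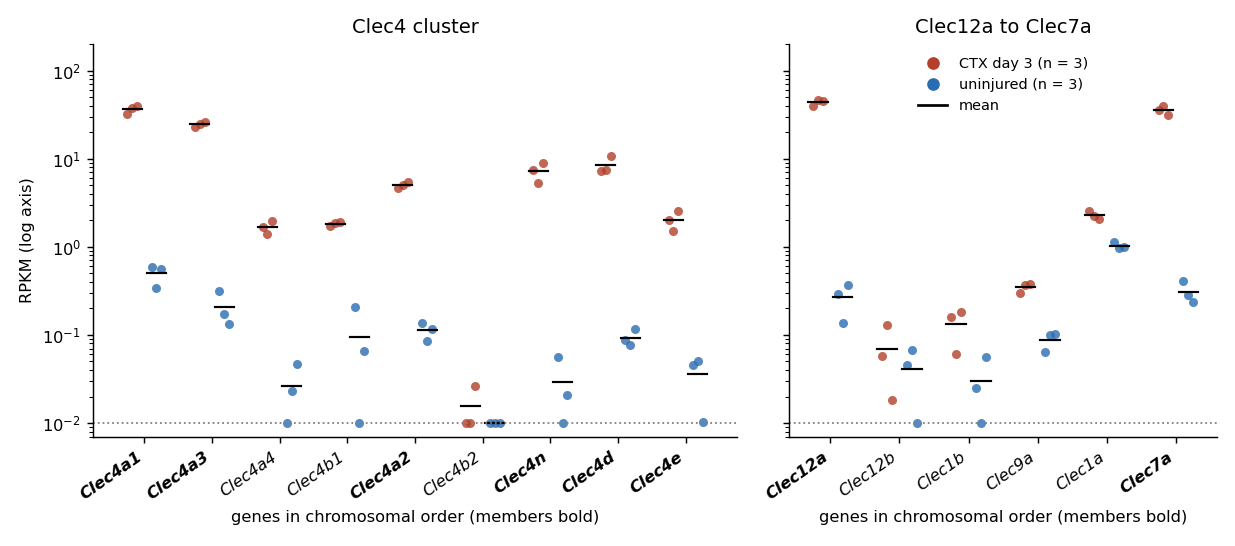
RPKM (log axis) by library for the genes of the 2 clusters on chromosome 6, in chromosomal order, 1 point per library, with group means as bars, members in bold and the lowest value of the table as a dotted line. In the Clec4 cluster the means at CTX day 3 lie between 1.67 RPKM for Clec4a4 and 36.5 RPKM for Clec4a1 apart from Clec4b2, which had 1 read, and in the other cluster Clec12a and Clec7a lie above the 4 genes between them.

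Promoter sequences of RefSeq (GRCm38.p6, 250 bases before to 50 after a start site) matched 8 of the 10 genes, all but Clec4n and Clec10a. They were searched on both strands for the PU box GAGGAA, the core of sites of the myeloid factor PU.1. It was found in 6 of the 8, against 28.3% of all 32851 promoters of this length. AP-1 (TGANTCA) and C/EBP (TTGCNNAA) patterns were each present in 2 of 8, Clec4a2 and Clec12a for AP-1 and Clec4e and Clec12a for C/EBP, against 7.81% and 10.8% of all promoters. No PU box overlapped either pattern in these promoters, and a match is a description of the letters, not a site or a cause. The 6 stretches with a PU box are shown because these members rose together, each as 60 bases 5′ to 3′ on the strand of the gene. Capitals mark the match nearest to the start site among those before it, and TTCCTC is a match on the opposite strand.
Clec12a, chr6:129350170-129350229, plus strand: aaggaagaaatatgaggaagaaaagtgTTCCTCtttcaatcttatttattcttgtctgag
Clec7a, chr6:129472843-129472902, minus strand: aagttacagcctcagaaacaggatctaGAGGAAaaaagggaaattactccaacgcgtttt
Clec4a1, chr6:122921634-122921693, plus strand: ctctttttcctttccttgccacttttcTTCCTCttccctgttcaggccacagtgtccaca
Clec4d, chr6:123261857-123261916, plus strand: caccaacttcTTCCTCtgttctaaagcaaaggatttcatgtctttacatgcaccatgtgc
Clec4e, chr6:123289895-123289954, minus strand: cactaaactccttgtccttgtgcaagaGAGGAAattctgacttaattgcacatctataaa
Clec5a, chr6:40585828-40585887, minus strand: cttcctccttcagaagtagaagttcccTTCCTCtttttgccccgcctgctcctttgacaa

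The first base of the match lay 47 bases before the start site in Clec12a, 55 in Clec5a, 56 in Clec4e, 90 in Clec7a, 187 in Clec4a1 and 240 in Clec4d. The promoters used for Clec12a (chr6:129349994-129350293) and Clec4a2 (chr6:123122440-123122739) lie inside the gene spans given above. For these 2 genes the outer end of the span was not searched. Of the members with a match, Clec12a and Clec7a had the largest log2 fold changes and Clec4e the smallest, and Clec4a3 (6.37) and Clec4a2 (4.60) had no match.

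The make-up of the group of lectins, each member's percent of the summed RPKM of all 10 within a library, does not depend on the scaling between libraries. Clec10a made up 6.11%, 7.04% and 6.92% at CTX day 3, against 24.6%, 25.0% and 30.2% in uninjured muscle, the largest difference of any member. Clec12a made up 23.9%, 25.3% and 24.3% at CTX day 3, against 11.3%, 8.82% and 16.3% in uninjured muscle. In both cases the groups did not overlap. The exact two-sided permutation p of a share cannot go below 0.1, or here 0.143 adjusted over the 10 members, so no share could pass 0.05. On the transcripts used, the group was thus led by Clec12a, Clec4a1 and Clec7a at CTX day 3 and by Clec10a and Clec4a1 in uninjured muscle. Clec4a3 (19.9%) led at CTX day 3, ahead of Clec12a (17.7%), when the transcripts of a gene were summed. Clec4a3 averaged 13.9% ± 0.196 at CTX day 3 and 9.74% ± 3.46 in uninjured muscle (SD, n = 3 each). Clec4n averaged 4.10% ± 1.02 at CTX day 3 and 1.24% ± 0.815 in uninjured muscle, and Clec5a 1.36% ± 0.183 at CTX day 3 and 0.739% ± 0.233 in uninjured muscle. These 3 shares were higher at CTX day 3 without overlap on the transcripts used. Clec4a2, at 2.85% ± 0.109 at CTX day 3 and 5.29% ± 0.133 in uninjured muscle, and Clec4a1, at 20.5% ± 0.934 at CTX day 3 and 23.2% ± 1.36 in uninjured muscle, were lower without overlap. Clec7a, Clec4d and Clec4e overlapped between the groups. Several of these separations depended on how transcripts were counted. With the transcripts summed, the share of Clec10a was 9.42% ± 0.886 at CTX day 3 and 34.5% ± 3.32 in uninjured muscle, while that of Clec4a1 was 14.8% ± 0.585 at CTX day 3 and 14.6% ± 0.989 in uninjured muscle, with overlap. Clec4n then made up 9.24%, 6.14% and 9.39% at CTX day 3, against 5.71%, 2.55% and 6.99% in uninjured muscle, and Clec5a 2.16%, 1.71% and 1.98% at CTX day 3, against 0.644%, 1.88% and 1.61% in uninjured muscle, so that both overlapped. The share of Clec7a, at 15.8%, 15.9% and 12.04% at CTX day 3, against 10.7%, 11.1% and 6.21% in uninjured muscle, was then free of overlap. Clec12a, Clec4a3, Clec10a and Clec4a2 were free of overlap in both ways of counting.

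**Figure D3:**
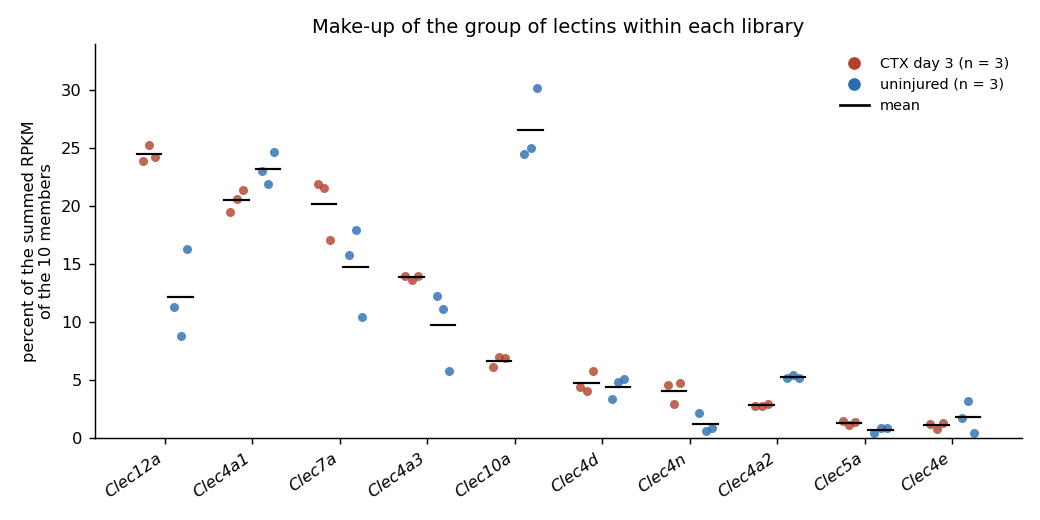
Percent of the summed RPKM of the 10 members held by each member, 1 point per library, with group means as bars, ordered by the level at CTX day 3. Clec10a has a mean of 6.69% at CTX day 3, against 26.6% in uninjured muscle, and Clec12a has 24.5% at CTX day 3, against 12.2% in uninjured muscle.

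Markers of other cells moved together with the lectins. The background for the counts below was 60.5% of all tested genes called higher, or 38.3% of all genes with no filter. All 13 monocyte and macrophage markers were called higher, led by the Fc receptor gene Fcgr1 (log2 fold change 7.81) and the lysosomal glycoprotein gene Cd68 (7.75). Their summed level was 3176 to 4556 RPKM at CTX day 3, against 38.3 to 44.9 RPKM in uninjured muscle. The lysozyme gene Lyz2, whose reads can be shared with Lyz1, was the most abundant. Their median log2 fold change was 6.06, beside 5.64 for the 10 lectins. Of 12 neutrophil markers 6 were tested and 6 called higher (7 with no filter), among them Mmp8 (4.75) and Csf3r (4.37), with sums of 26.7 to 58.2 RPKM at CTX day 3, against 3.52 to 10.5 RPKM in uninjured muscle, and S100a9 was the most abundant. The granule genes Elane, Mpo and Camp, all under the filter, had fewer reads at CTX day 3. Elane and Mpo had 0 and 16 reads at CTX day 3, against 10 and 56 in uninjured muscle, and Camp had 16 reads at CTX day 3 and 19 in uninjured muscle. Uninjured replicate 3 was the highest library for all 3, at 0.281 RPKM for Elane, 0.556 RPKM for Mpo and 0.776 RPKM for Camp. The neutrophil surface marker Ly6g had no reads in any library. Of 8 dendritic cell markers 7 were called higher, beside 60.5% of all tested genes, led by Itgax (5.83) and Irf8 (5.18). Zbtb46 (0.84) did not reach 2-fold. Both Zbtb46 and Xcr1 (1.14, called higher) lay below the median of all tested genes, 1.35, whereas the median of the 8 markers was 3.51. Zbtb46 and Xcr1 were named after their values were seen. The sums were 64.3 to 71.6 RPKM at CTX day 3, against 2.78 to 2.99 RPKM in uninjured muscle. Irf8 was the most abundant, at 38.9 to 47.9 RPKM at CTX day 3. Of 10 lymphocyte markers 4 were tested and 4 called higher, led by Cd4 (4.54) and Nkg7 (4.28), with sums of 7.32 to 11.5 RPKM at CTX day 3, against 0.585 to 1.07 RPKM in uninjured muscle. The part of each cell type in the change of the lectins was not tested.

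Set against the median of the 13 monocyte and macrophage markers of the same library, on the log2(RPKM + 0.1) scale, the lectins fell into 3 sets. Clec12a, Clec7a and Clec4a3 were higher relative to the markers at CTX day 3 than in uninjured muscle. For Clec12a the log2 ratio to the marker median was -0.07 ± 0.13 at CTX day 3 and -1.22 ± 0.41 in uninjured muscle (SD, n = 3 each), a difference of 1.15, and the differences were 0.68 for Clec7a and 0.58 for Clec4a3. Clec4a1 and Clec4n had differences of 0.16 and 0.03, with overlapping groups. Clec4d, Clec4a2, Clec5a, Clec10a and Clec4e were lower relative to the markers at CTX day 3, with differences of -0.33 for Clec4d, -1.19 for Clec4a2, -1.35 for Clec5a, -1.61 for Clec10a and -1.84 for Clec4e. For Clec10a the log2 ratio was -1.98, -1.80 and -2.02 at CTX day 3, against -0.20, -0.64 and -0.15 in uninjured muscle. In the 8 members without overlap the exact two-sided permutation p was 0.1, the smallest possible, or 0.125 adjusted over the 10 members. These differences carry the added 0.1 RPKM. With 0.01 added instead, those of Clec4d and Clec5a turned to 0.41 and 0.63, and that of Clec4n became 1.74, the largest of the 10, all 3 without overlap. With 1 added, those of Clec4a3 and Clec4n turned to -0.35 and -1.77, also without overlap. Only Clec12a was higher, and Clec10a and Clec4a2 lower, without overlap with each of the 3 values added. Clec7a overlapped with 1 added (0.05), and Clec4e with 0.01 added (-0.36).

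**Figure D4:**
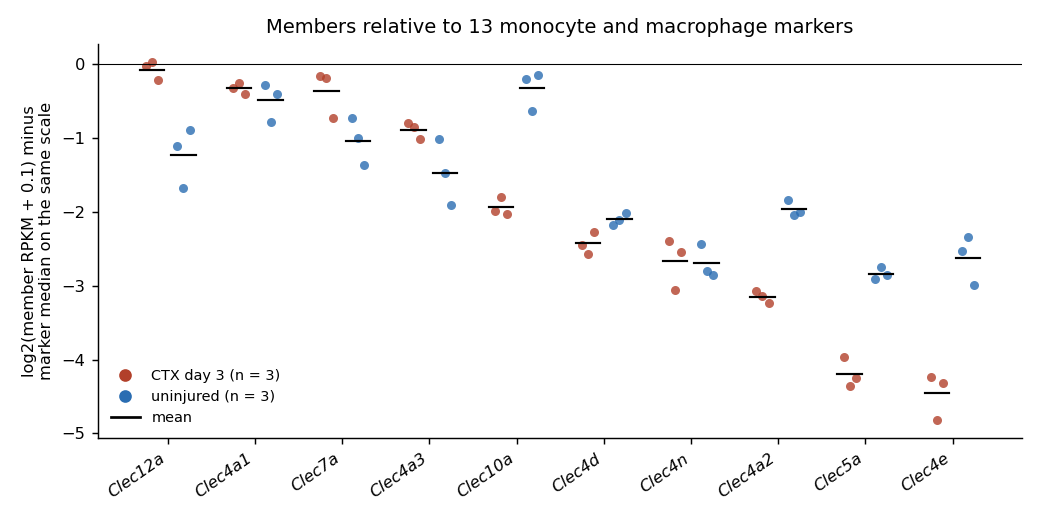
Level of each lectin relative to the median of 13 monocyte and macrophage markers in the same library, as log2(member RPKM + 0.1) minus the marker median on the same scale, 1 point per library, with group means as bars. Clec12a lies higher at CTX day 3 than in uninjured muscle by 1.15, Clec10a has a difference of -1.61, and the groups overlap for Clec4a1 and Clec4n.

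The adaptors and relays that these receptors use rose with them. Of 21 receptor partners and signalling genes, 20 were called higher and 0 lower, beside 60.5% and 7.96% of all tested genes. Their median log2 fold change was 4.75, beside 1.35 for all tested genes. The exception was Ptpn11 (SHP-2), a phosphatase present in most cells, with 0.47 (SE 0.07). With ribosomal protein scaling 14 were higher and 1 lower, beside 2295 and 6069 of the 14446 tested genes. Fcer1g averaged 351 ± 59.8 RPKM at CTX day 3 and 2.09 ± 0.763 RPKM in uninjured muscle (log2 fold change 7.38, SE 0.28, adjusted p = 2.55e-07). Tyrobp averaged 353 ± 63.5 RPKM at CTX day 3 and 2.39 ± 0.821 RPKM in uninjured muscle (7.19, SE 0.25, adjusted p = 2.04e-07, SD over n = 3 each). Per length, both adaptors were far above every member at CTX day 3. The ratio of Clec5a to Tyrobp, over all their transcripts, was 0.0138 ± 0.00245 at CTX day 3 and 0.0213 ± 0.0120 in uninjured muscle, and that of Clec4e to Fcer1g was 0.00578 ± 0.00130 at CTX day 3 and 0.0208 ± 0.0186 in uninjured muscle (exact two-sided permutation p = 0.4 and 0.3, both 0.4 adjusted over 5 ratios). Downstream, Syk was at 13.1 ± 1.81 RPKM at CTX day 3 and 0.308 ± 0.0891 RPKM in uninjured muscle (log2 fold change 5.03). Card9 was at 12.6 ± 2.00 RPKM at CTX day 3 and 0.376 ± 0.116 RPKM in uninjured muscle (4.75), and Ptpn6 at 31.8 ± 5.66 RPKM at CTX day 3 and 0.295 ± 0.128 RPKM in uninjured muscle (6.37).

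Cytokine and enzyme genes that these pathways are known to induce were mostly low. Of 12 such genes 7 reached the filter and 6 of these were called higher, beside 60.5% of all tested genes. With no filter 9 of 12 were, beside 38.3% of all genes. Ccl3, a chemokine of myeloid cells, was the most abundant, at 15.6 ± 3.72 RPKM at CTX day 3 and 0.0174 ± 0.0129 RPKM in uninjured muscle (log2 fold change 7.05, adjusted p = 1.10e-07). It was followed in size of change by the anti-inflammatory cytokine gene Il10, at 2.54 ± 0.381 RPKM at CTX day 3 and 0.0158 ± 0.00516 RPKM in uninjured muscle (4.502, adjusted p = 2.02e-07). Nos2, the inducible nitric oxide synthase, was the tested gene that did not pass, at 1.82 ± 0.253 RPKM at CTX day 3 and 1.402 ± 0.248 RPKM in uninjured muscle (0.36, adjusted p = 0.0689). Among genes of the receptors' self ligands or their source, 6 of 7 were tested and 6 called higher, beside the same 60.5% of all tested genes. The largest changes were those of Vim (vimentin, 4.97) and Anxa1 (annexin, 4.66). Vim was also the most abundant, at 1387 ± 177 RPKM at CTX day 3 and 44.2 ± 7.05 RPKM in uninjured muscle. Sf3b3, the source of the nuclear protein bound by Mincle, was at 40.0 ± 4.69 RPKM at CTX day 3 and 5.21 ± 0.0415 RPKM in uninjured muscle (2.91, adjusted p = 1.52e-07). Xdh, the enzyme that makes uric acid, which MICL binds as crystals, was at 42.0 ± 5.45 RPKM at CTX day 3 and 10.1 ± 2.04 RPKM in uninjured muscle (2.05, adjusted p = 7.72e-06). Sf3b3 and Xdh were singled out after their values were seen.

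Compared with the 10 members, other C-type lectin receptors were more mixed. Of 42 listed genes 41 were in the table and 21 tested, of which 19 were called higher, 0 lower, and 2, Clec2d (log2 fold change 0.85) and Clec3b (0.26), did not pass. The background was 60.5% of all tested genes called higher and 7.96% lower. Scaling to ribosomal protein genes left 8 called higher and 2 lower, beside 2295 and 6069 of the 14446 tested genes. The median of the 21 tested genes of the list was 2.79, beside 5.64 for the members. With no filter 22 of 41 were called higher, beside 38.3% of all genes, and 18 did not pass. Clec18a was then called lower (-1.3998, limma adjusted p = 0.00255), with 7 reads at CTX day 3 and 58 in uninjured muscle. Clec2i, a ligand of natural killer cell receptors, had the largest change at 5.21 (SE 0.21), followed by the mannose receptor gene Mrc1 at 4.58 (SE 0.15), with 69.9 ± 15.3 RPKM at CTX day 3 and 2.79 ± 0.201 RPKM in uninjured muscle. Cd93, a receptor of endothelial and myeloid cells and the most abundant of the list over all libraries, was at 67.4 ± 11.6 RPKM at CTX day 3 and 9.65 ± 1.23 RPKM in uninjured muscle (2.79, SE 0.14). Clec4f, the receptor of liver Kupffer cells, had no reads in any library.

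**Figure D5:**
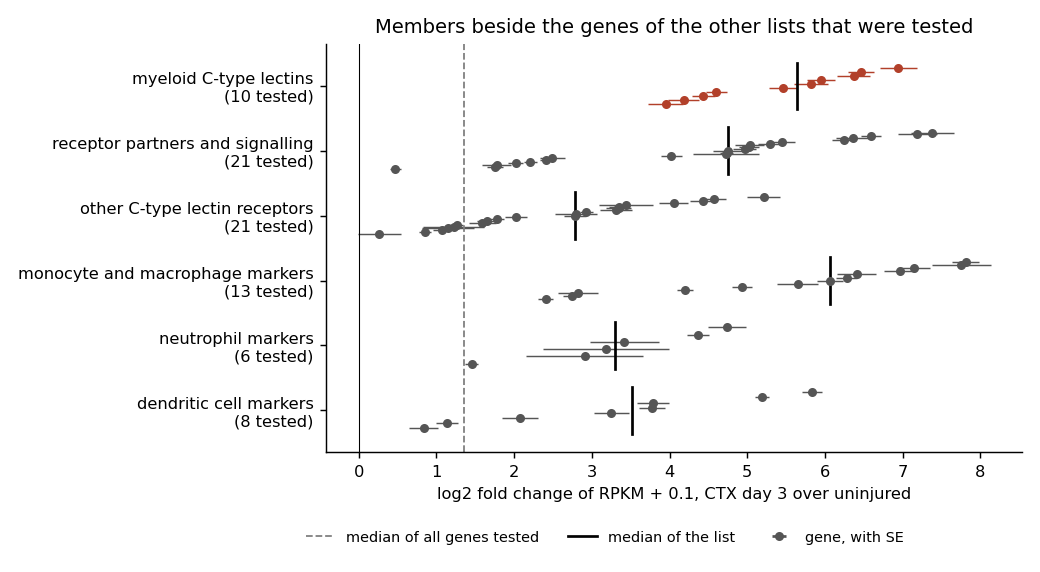
Log2 fold change of RPKM + 0.1 (CTX day 3 over uninjured, with SE) of each tested gene of 6 lists, 1 point per gene, with list medians as black bars and the median of all tested genes, 1.35, as a dashed line. The 10 lectins lie between 3.95 and 6.94 with a median of 5.64, beside medians of 6.06 for monocyte and macrophage markers and 2.79 for other C-type lectin receptors.

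The 5 genes whose profile over the 6 libraries lay nearest to the median profile of the lectins, by Euclidean distance of centred log2(RPKM + 0.1) values, were Stab1 (distance 0.204), Mybl2 (0.252), Fgd2 (0.256), Ccr1 (0.260) and Anln (0.263). Stab1, a scavenger receptor gene, was at 90.2, 89.5 and 139 RPKM at CTX day 3, against 2.56, 1.90 and 2.51 RPKM in uninjured muscle, with CTX day 3 replicate 3 the highest and uninjured replicate 2 the lowest library. The same 2 libraries were the highest in 7 and the lowest in 6 of the 10 lectins, beside 48.5% and 46.0% of all tested genes. Of the members Clec4d lay closest to that median profile (0.253) and Clec4e farthest (2.03). CTX day 3 replicate 3 was also the library with the lowest summed fibre markers, and its part in the values was not tested. Without it the log2 fold change was 6.92 for Clec12a and 3.78 for Clec4e, and 10 of 10 members were still called higher.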

How the data were processed

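RNA-seq libraries (1 μg of total RNA, single reads of 50 nt) of 3 CTX day 3 and 3 uninjured TA muscles were analysed. Per the labels and the study's methods, the authors aligned reads with BWA to RefSeq mouse transcripts, name CASAVA 1.4 and SAMtools 0.1.19, and deposited RPKM values per transcript for 34302 sequences (34206 naming a gene, 96 not, 92 of them ERCC spike-ins). Rows naming no gene, which also hold mitochondrial and contaminant sequence, held 4.06% to 4.80% of reads at CTX day 3 and 12.4% to 13.8% in uninjured muscle, and stayed out of all tests. The assignment of reads that match more than 1 transcript is not given in the sources used here. All values above the lowest, 0.01, came to whole reads (100%, within 0.01 read) from length and library total; 0.01 was read as 0 reads. Depth was 34202861 to 43062684 reads.

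For 5019 genes with several transcripts, the one with the highest mean was used. limma 3.58.1 (R 4.3.3; trended eBayes) tested log2(RPKM + 0.1) of the 14446 genes whose mean RPKM reached 0.5, and genes with a p under 0.05 after Benjamini-Hochberg adjustment and an absolute log2 fold change of 1 or more were called. The script was tested on simulated data. Shares, relative levels and gene ratios were compared by exact two-sided permutation tests over libraries, and ratios of pooled reads have exact 95% intervals that cover counting error only. These steps and the plots used SciPy 1.17.1, NumPy 2.4.6, pandas 2.3.3 and matplotlib 3.10.9 under Python 3.11.15. Positions and shared 50-base stretches come from GENCODE M21 (GRCm38). The members and gene lists were chosen with earlier results of these data known. Named in the text are all members, the 2 largest rises and falls, the most abundant gene and any gene against the direction of each list, 8 set genes (Fcer1g, Tyrobp, Syk, Card9, Ptpn6, Mgl2, Clec4b1 and Clec4b2), and the 5 genes of the most similar profile. Alternatives varied the pseudocount, filter, scaling, limma options, replicate block, fold minimum, transcripts, voom on recovered reads, and libraries left out.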

Additional observations from a re-analysis of the deposited data

How the results depend on the processing

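Over 20 other settings all lectins tested were called higher (Clec4e and Clec5a were not tested with a mean RPKM of at least 2); the log2 fold change of a member was never under 1.53 (Clec4e with 1 added) and the adjusted p never over 0.000711. The median of all genes shifted to 0.06 with median-of-ratios scaling, 0.95 with spike-in scaling, -0.07 with quantile normalization and -0.74 with ribosomal protein scaling, beside 1.35. Of 358 calls and log2 fold changes 343 held and 15 counts moved. The log2 fold changes that held kept their direction but not their size. They ranged from 1.53 to 5.80 for Clec4e and from 1.74 to 7.05 for Clec5a. Genes called higher and lower came to 3341 and 3414 with quantile normalization, 3801 and 3254 with median-of-ratios scaling and 2295 and 6069 with ribosomal protein scaling. With spike-in scaling they came to 7017 and 1580, counts that held. With no fold minimum 2033 were lower. Other C-type lectin receptors called higher were 12 with median-of-ratios scaling, 11 with quantile normalization, 8 with ribosomal protein scaling and 11 with a mean RPKM of at least 2. Called lower were 1 of them with no filter, 1 with median-of-ratios scaling and 2 when ribosomal protein genes set the scale, where 1 signalling gene was also lower. The replicate numbers did not pair the samples (correlations of same-numbered deviations -0.06, 0.09 and 0.02), and with the replicate block 10 lectins, 20 signalling genes, 18 other lectins and 8743 genes were called higher.

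Of the shares, the difference of Clec4a1 was 0.183 points with transcripts summed, where Clec4n and Clec5a lost and Clec7a gained a separation of the groups; leaving out 1 library gave Clec4d -0.205 to 0.680 (-0.184 without CTX day 3 replicate 3) and moved that of Clec4e between -1.37 (without uninjured replicate 3, with no overlap) and 0.0226 (without uninjured replicate 2, with overlap). Relative to the markers, Clec4d and Clec5a turned to 0.41 and 0.63 and Clec4n became 1.74 with 0.01 added, and Clec4a1, Clec4a3 and Clec4n to -0.11, -0.35 and -1.77 with 1 added; Clec4n ranged between -0.10 and 0.22 (-0.03, -0.02 and -0.05 in the other reversals) with 1 library left out. The linear folds of Clec4a2, Clec4d, Clec4e, Clec4n and Clec5a were 24.2, 44.7, 15.6, 57.1 and 21.7 with 0.1 added to every RPKM, and that of Clec4n lay between 189 and 472 with 1 library left out. In each case the cause was not tested, apart from the added constant, which is large beside uninjured levels near 0.01. At this depth 1 read in 1 kb equals 0.0232 to 0.0292 RPKM, so uninjured levels of Clec4n, Clec5a and Clec4e rest on 4, 7 and 11 reads.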
